A study of Homo sapiens with 18 samples.

Results

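The lysate transcriptome of HEK293T cells was compared between cells that received Flag-SBP2 together with sodium selenite and cells that received the Flag vector. The comparison rests on input libraries only, that is, on lysate RNA set aside before the Flag precipitation of an RNA immunoprecipitation sequencing (RIP-seq) study. It takes 6 of the 18 libraries of the series, 3 of Flag-SBP2 with selenite and 3 of the vector control, chosen by their labels. HEK293T cells derive from human embryonic kidney and take up plasmids well; the growth protocol names the parent line, HEK293, in their place. Both groups were transiently transfected and collected 48 h later. The SBP2 group was given 100 nM sodium selenite 4 h after transfection, and no selenite is named for the controls. No input had selenite without Flag-SBP2, so in this comparison the effects of the plasmid and of selenite cannot be told apart. The 3 inputs with Flag-SBP2 and no named selenite entered the same model and are set beside the compared groups to show how a value stood with SBP2 alone.

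SBP2 (SECIS-binding protein 2) binds a stem-loop, the SECIS element, in the mRNA of selenoproteins and takes part in reading a UGA codon as selenocysteine instead of a stop. Selenite is a selenium source from which cells make the selenocysteine carried by a dedicated tRNA. When selenium is short, some selenoprotein mRNAs are known to be degraded through nonsense-mediated decay, so their level can follow the selenium supply. The deposited counts name genes by Ensembl ID only, and 0 of 58676 IDs could be paired with a symbol through the reference table. Only a few IDs are therefore printed, unnamed, and the others are described by counts and ranges. The transfected gene, the selenoprotein genes, pathway lists and cell type markers were not analysed here by name.

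Sequencing gave 15.2 to 20.7 M counts per control input and 16.6 to 19.1 M per selenite input, with M for 1e+06 counts. Between 22712 and 24326 IDs were detected in these 6 libraries, and 16616 IDs passed the low-count filter over the 9 inputs. The control inputs lay far apart. On the first principal component, with 30.5% of the variance of the 9 inputs, controls 1, 2 and 3 were at -2.07, 19.4 and 37.8, and selenite inputs 1, 2 and 3 at -18.0, -6.67 and 14.6. On the second, with 20.2%, control 1 stood at 37.4 against 6.92 and 1.69 for controls 2 and 3. The median SD of log2 level between libraries was 0.19 in control and 0.17 in selenite inputs. Replicate 3 was thus the highest of its group on the first component in both groups, and some results are also given without single libraries.

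The largest rise belonged to ENSG00000187742. Levels are in CPM, counts per 1e+06 after TMM scaling of the library. Control inputs held 54.6, 49.9 and 55.3 CPM of it, and selenite inputs 3352, 3191 and 2316 CPM. The groups were far from overlapping, and selenite input 3 was the lowest of its group. The change was 5.79 on the log2 scale, or 55.4-fold (SE 0.15, n = 3 and 3, edgeR quasi-likelihood adjusted p = 6.36e-12). This ID moved from rank 4230 of 16616 by mean level in control inputs to rank 13 in selenite inputs. It took 0.231 to 0.336% of all counts of a selenite input, against 0.00499 to 0.00552% in the controls. In inputs with Flag-SBP2 alone it stood at 3001, 2730 and 2505 CPM. The difference made by selenite was 0.11 on the log2 scale, with a 95% interval from -0.15 to 0.36.

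ENSG00000130513 was a rare transcript in control inputs, at 1.10, 1.45 and 1.31 CPM, which came from 16, 27 and 27 counts. It stood at 12.2, 13.4 and 11.7 CPM in selenite inputs. All selenite inputs were above all controls, and the rise was 9.53-fold (log2 3.25, SE 0.17, n = 3 and 3, edgeR adjusted p = 8.03e-08). Inputs with SBP2 alone held 10.7, 12.4 and 12.8 CPM, and the selenite difference was 0.05, with a 95% interval from -0.23 to 0.33. The levels with and without selenite overlapped for both of these IDs.

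ENSG00000178980 was the only ID of 16616 that passed the test of SBP2 inputs with against without selenite (0.00602% of those tested). With the replicate number as a block, a fit described further on, 37 IDs passed. Control inputs held 67.3, 57.3 and 60.3 CPM of ENSG00000178980, and inputs with SBP2 alone 76.2, 52.5 and 60.1 CPM. With SBP2 and selenite the level was 147, 132 and 148 CPM. The first 2 groups overlapped and the third lay above both. Against the controls the rise was 2.31-fold (log2 1.21, SE 0.12, n = 3 and 3, edgeR adjusted p = 0.000243), and against SBP2 alone it was log2 1.18 (SE 0.12, 95% interval 0.91 to 1.44, edgeR adjusted p = 0.00216). SBP2 alone differed from control by 0.03, with a 95% interval from -0.24 to 0.30 (edgeR adjusted p = 0.928).

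The largest falls that passed in the fit without a replicate block were about 2-fold. With the replicate number as a block, a fit described further on, more IDs passed and their log2 changes reached -1.70, with 16 of them at a halving or more. ENSG00000167700 lay at 109.6, 93.2 and 114 CPM in control inputs and at 49.2, 42.0 and 65.3 CPM in selenite inputs. No selenite input reached a control, and the level fell by 1.02 on the log2 scale (SE 0.16, n = 3 and 3, edgeR adjusted p = 0.00896). SBP2 alone gave 51.0, 46.1 and 64.6 CPM, and the selenite difference was -0.05, with a 95% interval from -0.38 to 0.29. This ID no longer passed without selenite input 1 (edgeR adjusted p = 0.0511) or selenite input 2 (0.0688).

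ENSG00000100889 held 84.8, 78.6 and 143 CPM in control inputs and 59.9, 38.9 and 53.9 CPM in selenite inputs. Control 3 was far above the other controls, and the same-numbered differences were -0.50, -1.02 and -1.41 on the log2 scale. The fitted change was -1.01 (SE 0.20, n = 3 and 3, edgeR adjusted p = 0.0353). Without control 3 it was -0.66 and did not pass (edgeR adjusted p = 0.0713), nor did it pass without any 1 of the selenite inputs (adjusted p from 0.0563 to 0.26). It did not pass either without SBP2 input 1 (0.0602) or 2 (0.0727), which only share the estimate of the spread, or in a fit over the 6 compared libraries (0.103). With the replicate number as a block it passed (log2 -0.99, SE 0.11, edgeR adjusted p = 4.8e-06).

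**Figure D1:**
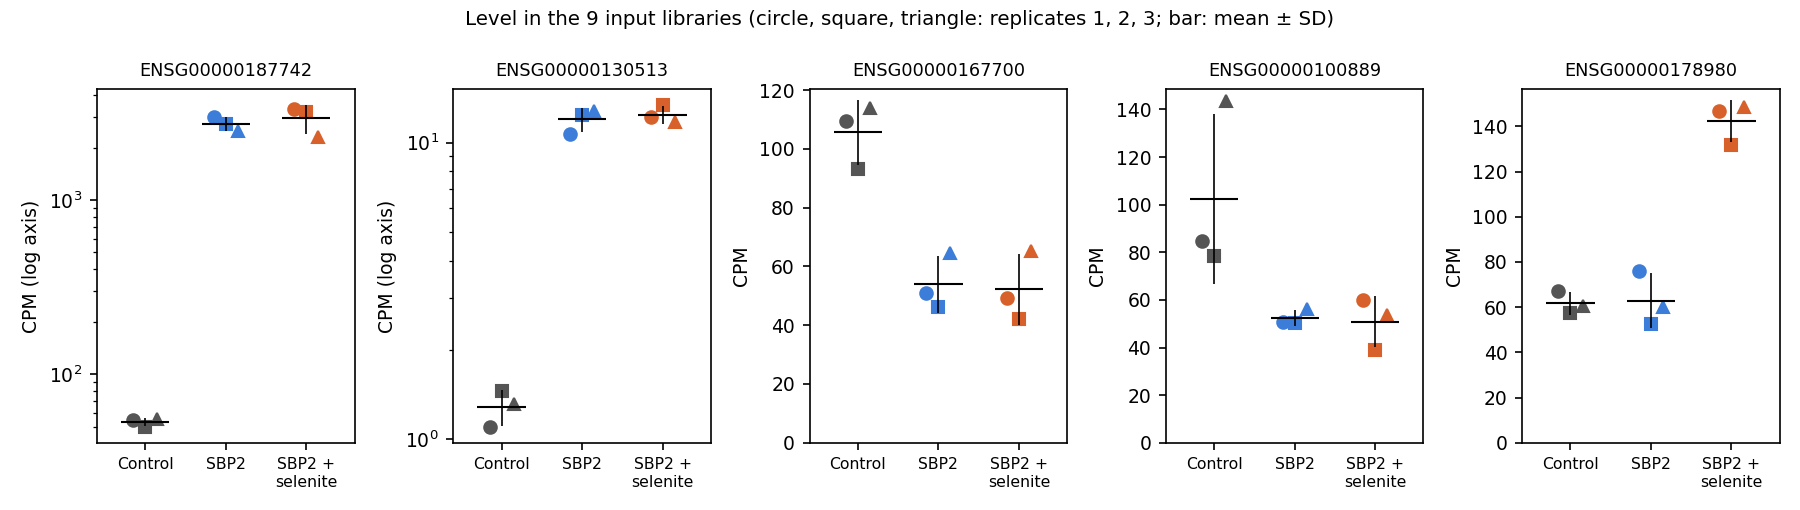
Levels in CPM of the 5 IDs described (linear axes from 0, log axes for the first 2 IDs) in the 9 inputs, with circles, squares and triangles for replicates 1, 2 and 3 and bars for the mean ± SD of 3 libraries. ENSG00000187742 and ENSG00000130513 are high in both SBP2 groups, ENSG00000178980 is high with selenite (132 to 148 CPM) and not with SBP2 alone (52.5 to 76.2 CPM), and the last control of ENSG00000100889 stands at 143 CPM.

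In all, 92 of 16616 IDs passed at an adjusted p of 0.05 (0.554%), 51 higher (0.307%) and 41 lower (0.247%). Both directions differed in size and in abundance. The IDs that rose did so by a median of 1.01 on the log2 scale, from 0.49 to 5.79, and 26 of them at least doubled. The IDs that fell had a median log2 change of -0.71, from -1.02 to -0.49, and 3 of 41 reached a halving. The median control level was 6.11 CPM for the IDs that rose, with a range from 0.171 to 61.6 CPM. It was 60.1 CPM for those that fell, with a range from 12.3 to 485 CPM. In selenite inputs the medians were closer, at 11.7 and 36.4 CPM. Control level is part of the change by which the IDs were chosen, so the selection itself widens the gap in controls. An ID as low as 0.171 CPM in controls passed the low-count filter only through the SBP2 inputs. Over all tested IDs the median control level was 17.8 CPM and the median change -0.02.

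By level, 8 IDs were higher and 0 lower with a mean log2 CPM below 1, and 16 and 0 from 1 to 3. From 3 to 5 there were 17 higher and 17 lower, from 5 to 7 there were 9 and 16, and at 7 or more 1 and 8. The share called was 0.244, 0.58, 0.767, 0.551 and 0.556% of the IDs tested in these 5 ranges. The median SE of the log2 change fell across them, at 0.37, 0.20, 0.14, 0.11 and 0.10. A smaller change could therefore pass among abundant IDs than among rare ones. The adjusted p was under 0.001 for 10 of the 51 higher IDs and for 0 of the 41 lower ones, and it was 0.01 or more for 33 and 36. Calls in the lower direction thus lay closer to the threshold.

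**Figure D2:**
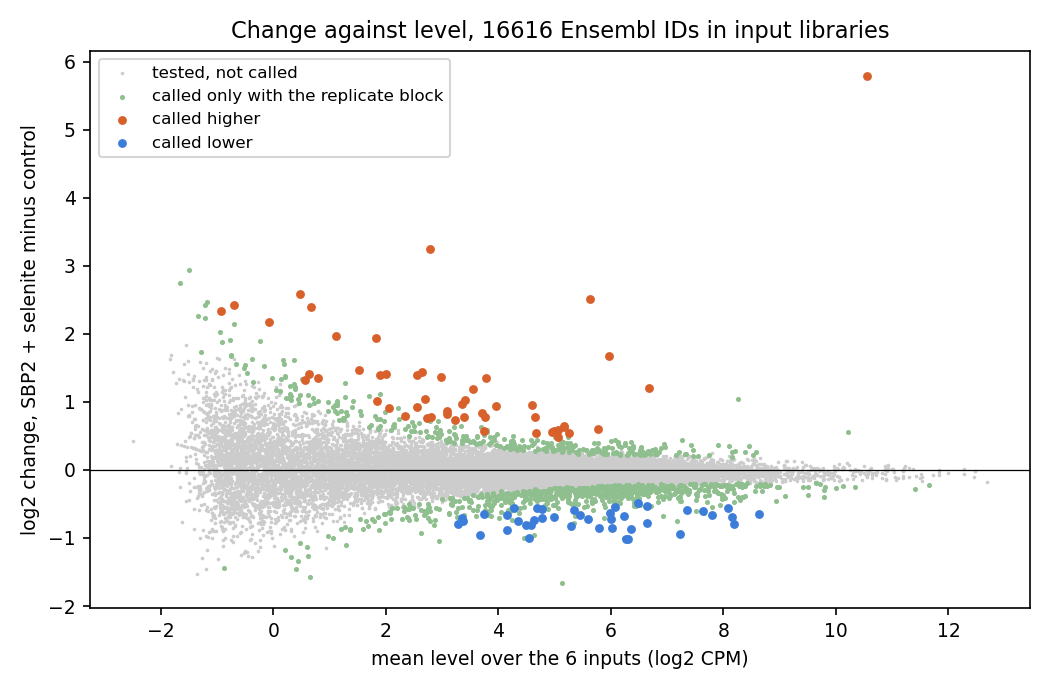
Each point is 1 of the 16616 IDs, with the mean level over the 6 compared inputs (log2 CPM) on the horizontal axis and the log2 change, SBP2 with selenite minus control, on the vertical axis. Called IDs that rose (51) spread over low and middle levels, except the largest rise (5.79), the only 1 at a mean log2 CPM of 7 or more. Called IDs that fell (41) lie between -1.02 and -0.49 at middle and high levels.

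None of the 51 and 41 called IDs overlapped between the groups (51 of 51 higher, 41 of 41 lower). They were called on these same libraries, so the selection largely fixed this separation, and it is no further support. Over all tested IDs, 6.4% lay without overlap in the higher direction and 8.36% in the lower. Without overlap the same-numbered pairs also run 1 way, as they did for every called ID. Of all tested IDs, 19.2% were higher and 24.8% lower in 3 of 3 pairs. Summed over the 50 IDs that rose other than ENSG00000187742, the level was 537, 553 and 545 CPM in controls and 1046, 1077 and 1119 CPM in selenite inputs. SBP2 alone gave 966, 937 and 972 CPM. The selenite inputs were all above the SBP2 inputs in this sum, but ENSG00000178980 carried that separation. Over the other 49 IDs the sums were 889.9, 885 and 912 CPM with SBP2 alone and 899.7, 945 and 971 CPM with selenite, and the groups overlapped. No test is given for these sums, since the IDs were chosen on the selenite inputs. For the 41 IDs that fell, the sums were 3927, 3795 and 4934 CPM in controls, 2508, 2417 and 2761 CPM with SBP2 alone and 2579, 2354 and 2867 CPM with selenite.

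Replicate 3 stood out among the IDs that fell. It was the highest of the control inputs for 38 of the 41 (92.7%), and the highest of the selenite inputs for 35 (85.4%). Over all tested IDs, not matched to these by level, the shares were 37.3% and 38.7%. For the IDs that rose, replicate 3 was the highest control for 17 of 51 and the highest selenite input for 21. Without control 3, 10 IDs were lower, all among the 41, and 35 higher. Without selenite input 1, 2 or 3 there were 8, 1 and 86 lower IDs, so control 3 was not alone in moving this count. Replicate 3 was thus high for the IDs that fell in both groups.

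**Figure D3:**
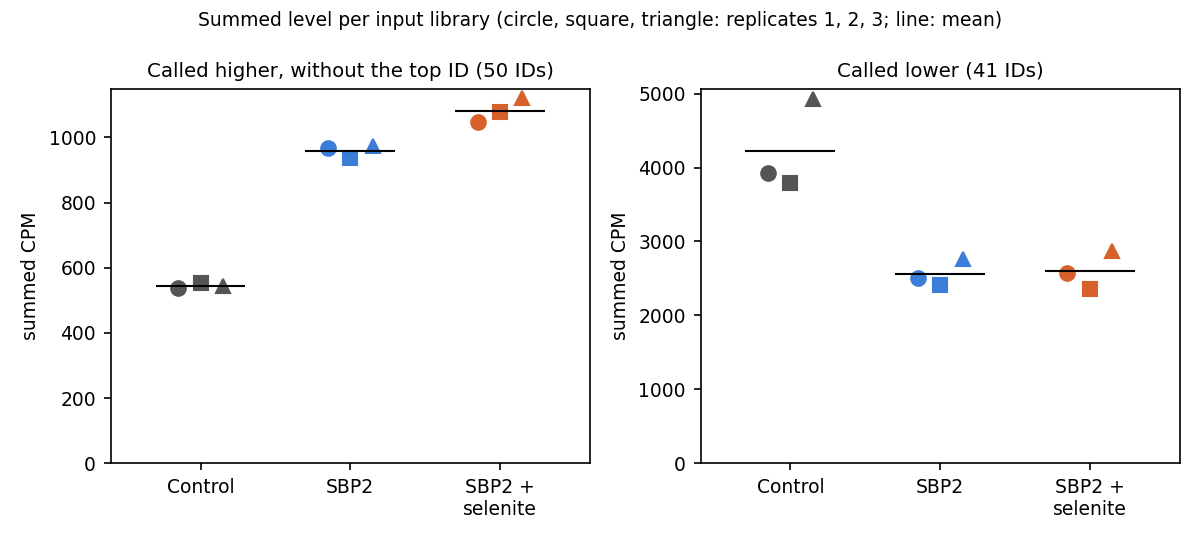
Summed CPM in each of the 9 inputs of the 50 IDs called higher other than ENSG00000187742 (left) and of the 41 called lower (right), with circles, squares and triangles for replicates 1, 2 and 3 and a line for the mean. Replicate 3 is the highest library of each group in the right panel, with 4934 CPM among the controls.

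Inputs of the same number deviated together. Across IDs, the deviations of controls 1, 2 and 3 from their group mean correlated with those of the same-numbered selenite input at 0.39, 0.17 and 0.41, and with other numbers at -0.36 to -0.05. Deviations from a group mean cancel within the group, so positive same-numbered values make the others negative on balance. The negative values are therefore no further support for pairing. The interquartile range of log2 ratios was 0.32, 0.33 and 0.34 in same-numbered pairs and 0.38 to 0.58 in the others. With the replicate number as a block, the biological coefficient of variation went from 0.114 to 0.0650 and the median SE from 0.14 to 0.10. The block fit called 6.8% of the tested IDs, 375 higher (2.26%) and 755 lower (4.54%), among them all 51 and all 41. Most of these changes were small, since 60.3% of the higher and 84.9% of the lower ones were under 1.5-fold, against 11.8% and 17.1% without the block. The IDs lower with the block were again abundant, at a median of 59.5 CPM in controls, against 13.5 CPM for those higher. In selenite inputs these medians were closer, at 46.0 and 18.6 CPM. In abundant IDs (mean log2 CPM of 7 or more) 149 were lower and 22 higher. Below a mean log2 CPM of 1 this was the other way round, with 10 and 58. The block counts fell without some single libraries too. They were 219 higher and 442 lower without control 2, 181 and 265 without control 3, 159 and 320 without selenite input 1, 145 and 235 without 2, and 187 and 471 without 3. Of the block calls, 88 higher and 170 lower IDs passed in each of the 9 fits that left out 1 input.

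Without the block, calls were lost without single libraries as well. In each of the 9 fits that left out 1 input, 18 of the 51 higher IDs and 1 of the 41 lower ones passed. Every called ID kept the sign of its log2 change in these fits. Fits without control 1, 2 or 3 kept 42, 24 and 34 of the 51 higher IDs and 37, 24 and 10 of the 41 lower ones. Fits without selenite input 1, 2 or 3 kept 21, 22 and 40 of the higher and 6, 1 and 38 of the lower IDs. Leaving out SBP2 input 1, 2 or 3, which are in neither group, kept 33, 33 and 38 of the higher and 19, 14 and 32 of the lower IDs. A call can thus be lost through the estimate of the spread alone, and need not have rested on the library left out. A core of 19 IDs, 18 of them higher, passed in all 20 alternatives planned, with block and leave-one-out fits among them. The 18 rose by 0.84 to 5.79 on the log2 scale and included ENSG00000187742, ENSG00000130513 and ENSG00000178980. Scaling moved the balance as well. Of the calls, 55.4% were higher with TMM factors, 67.8% with upper-quartile factors (59 higher, 28 lower) and 68.6% with library size alone (59 and 27), while the median of all IDs stayed between -0.02 and 0.03.

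**Figure D4:**
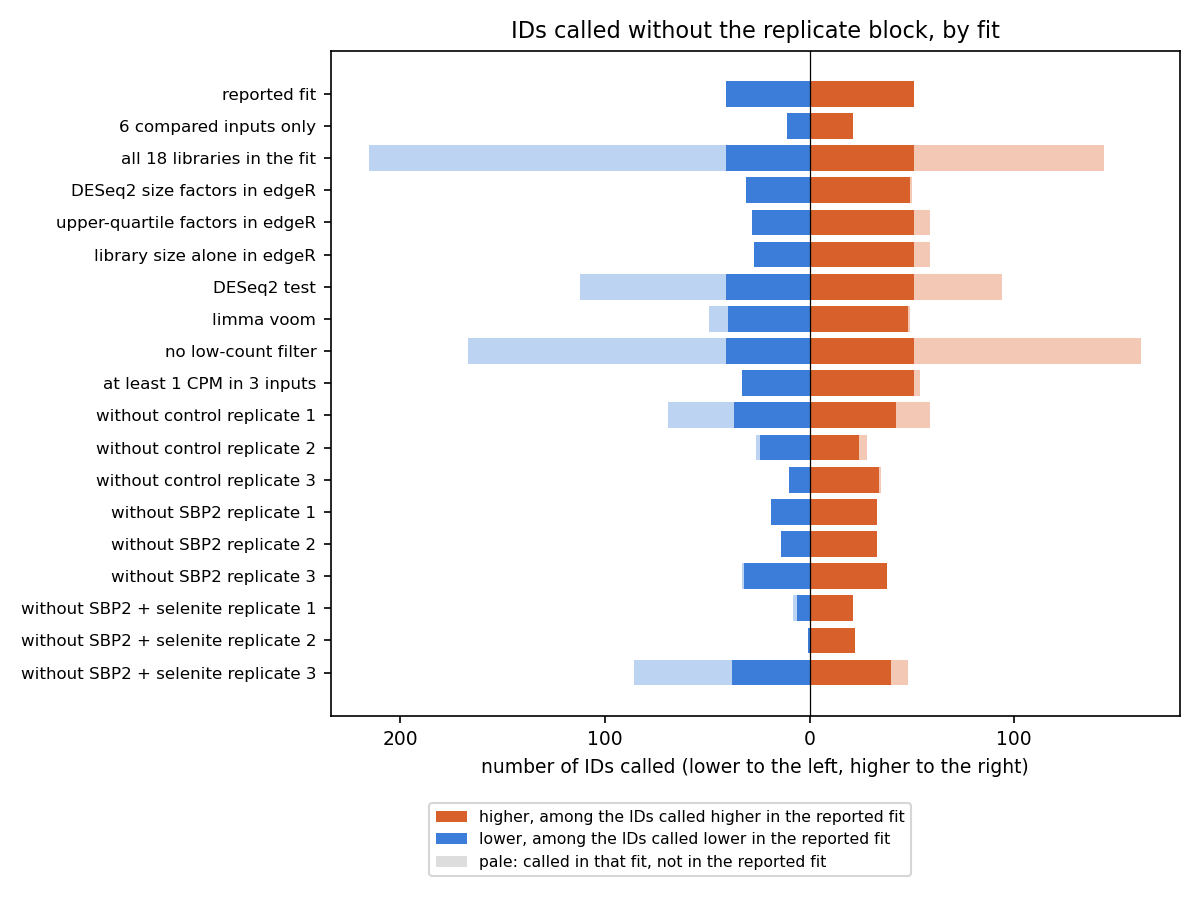
Number of IDs called higher (right) and lower (left) in each fit without the replicate block, with IDs also called in the reported fit in dark and others in pale colour. The fewest lower calls are 1 without selenite replicate 2, 8 without selenite replicate 1 and 10 without control replicate 3, while at least 21 higher calls are made in every fit shown.

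Against SBP2 inputs without selenite, 1 of the 92 IDs passed, ENSG00000178980. For the other 91 the 95% interval of the selenite difference, not adjusted for their number, had a median half-width of 0.29 on the log2 scale. It lay within 1.5-fold in both directions for 79 of them and within 2-fold for 88. These intervals are not a detection limit, since a call had to pass the adjustment over all 16616 IDs. Of these, 251 had an unadjusted edgeR p under 0.05 and 1 passed. The 251 are fewer than a threshold of 0.05 would give without any difference, so the test without the block was strict. With the block, 1679 IDs had an unadjusted edgeR p under 0.05. The intervals rest on the wider spread of the fit without the block. Selenite differences larger than the half-width could thus be missed too. The median difference was 0.06 over the 51 higher IDs, 0.03 over the 41 lower IDs and 0.00101 over all tested. Both SBP2 comparisons use the same 3 control inputs, so their changes are only given side by side. The 51 higher IDs had a median of 1.01 with and 0.92 without selenite, and the 41 lower IDs -0.71 and -0.74. With the block, 37 IDs differed between SBP2 inputs with and without selenite (0.223%), 5 higher and 32 lower. Of the 5 higher IDs, ENSG00000178980 among them, 4 were also called against control with the block, and of the 32 lower ones 2 were. The 32 did not hold without single libraries, with 0 lower without SBP2 input 2 or 3 or without any 1 selenite input, against 224 and 98 without controls 1 and 2 and 431 without SBP2 input 1.

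The RIP libraries of the same lysates gave a second readout that the input calls did not use. They measure RNA recovered on anti-Flag beads, so a difference there combines the lysate level with recovery. A deviation of 1 lysate can appear in both of its libraries, so the RIP libraries are not independent replicates of the input calls. In a separate edgeR fit over the 9 RIP libraries, 29.5% of 17139 IDs were higher and 28.1% lower in SBP2 RIP with selenite than in control RIP. Of the 51 IDs higher in inputs, 41 were higher and 3 lower in RIP, with a median log2 difference of 1.15. Of the 41 IDs lower in inputs, 28 were lower and 7 higher, with a median of -0.41 and a highest value of 2.46. Most called IDs thus moved in RIP in the direction of the input, and a few moved the opposite way. For the block calls these counts were 226 higher and 52 lower of 374 tested among those higher in inputs. Among 754 tested of those lower in inputs, 424 were lower and 156 higher.

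ENSG00000187742 was at 87.6, 78.9 and 85.0 CPM in control RIP and at 8398, 8739 and 6481 CPM in SBP2 RIP with selenite (log2 6.55, SE 0.12, n = 3 and 3, edgeR adjusted p = 7.6e-23). By mean level it was the top ID of those RIP libraries (rank 1). ENSG00000130513 went from 0.593, 1.13 and 0.568 CPM to 16.7, 20.6 and 14.5 CPM in RIP (log2 4.53, edgeR adjusted p = 5.43e-15).

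ENSG00000178980 showed the widest gap between both readouts among the 5 IDs. Its log2 difference was 6.20 in RIP (SE 0.09, n = 3 and 3, edgeR adjusted p = 8.2e-24) against 1.21 in inputs. Control RIP held 13.2, 13.96 and 12.8 CPM, SBP2 RIP 437, 461 and 422 CPM and SBP2 RIP with selenite 982, 895 and 1062 CPM. In RIP, unlike in inputs, SBP2 alone was already far above the control, and the libraries with selenite were higher again without overlap. Mean levels with SBP2 alone and with selenite were 440 and 979 CPM in RIP, against 62.9 and 142 CPM in inputs. The lysate level thus rose with selenite too, and a change in recovery was not tested. Both falling IDs were lower in RIP too. ENSG00000167700 went from 45.0, 34.7 and 44.1 to 31.5, 23.9 and 28.1 CPM (log2 -0.57, edgeR adjusted p = 4.78e-05), and ENSG00000100889 from 113, 98.8 and 157 to 89.8, 55.8 and 68.0 CPM (log2 -0.79, edgeR adjusted p = 3.67e-05). As in the inputs, control 3 was the highest for ENSG00000100889.

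**Figure D5:**
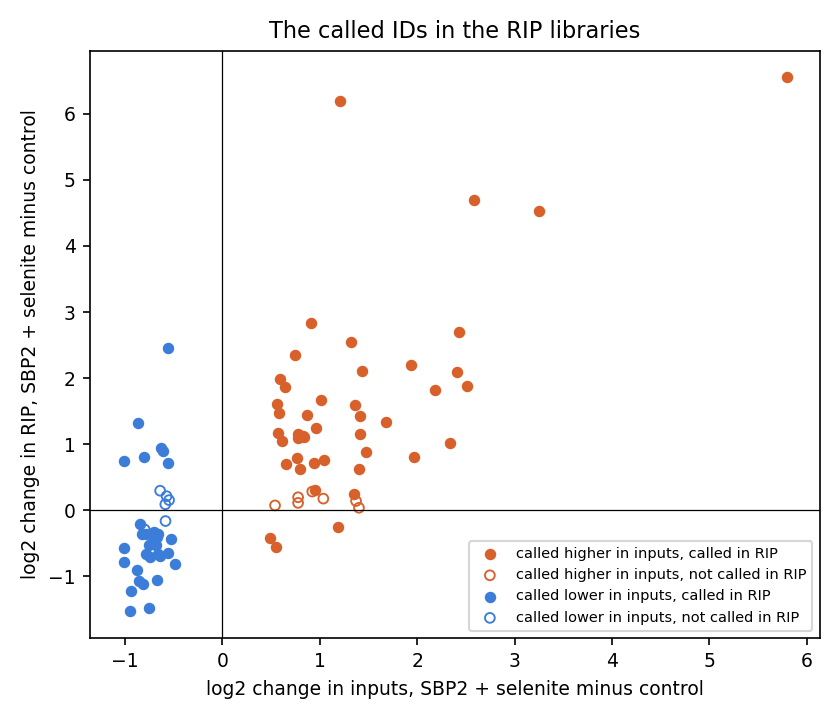
The 92 called IDs, with the log2 change in inputs on the horizontal and the log2 difference in RIP libraries on the vertical axis, both SBP2 with selenite minus control; filled points passed in RIP and open points did not. Of the 51 IDs on the right, 41 are higher in RIP, and of the 41 on the left 28 are lower and 7 higher.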

How the data were processed

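The authors deposited whole-number counts per Ensembl gene ID for 18 libraries. Trim Galore 0.6.6, STAR 2.7.6a, featureCounts 2.0.1 and GRCh38 (hg38) are named in the submitters' processing notes. The annotation, the use of strand and multiply matching reads are not stated there, so overlapping genes and paralogs may share reads. Samples were grouped and numbered by title. The series calls the replicates biological; separate transfection days are not stated.

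IDs were kept by filterByExpr (minimum count 10, minimum total 15), scaled by TMM factors and tested in a group-means model over 9 inputs. The test was the two-sided quasi-likelihood test of edgeR 4.0.16 (R 4.3.3), with Benjamini-Hochberg adjustment over all IDs and a threshold of 0.05. SEs came from the test statistic. Log2 values of single libraries used a prior count of 2. Alternatives used DESeq2 1.42.0 and limma 3.58.1. Replicate numbers were taken to pair the inputs, since selenite inputs correlated with every same-numbered control or SBP2 input above 0.1 (lowest 0.15). Same-numbered control and SBP2 inputs, also in the block fit, correlated at 0.25, 0.09 and 0.28, so number 2 fell below 0.1 there. The RIP fit and the block fits without single libraries were chosen after the data were seen. Data simulated for the comparison with control (16387 IDs) had no replicate structure. Changes were placed only in IDs averaging at least 1 CPM. Of these, 91 of 100 changes of log2 1 and 99 of 100 of log2 2 were recovered, and 12 of all 202 calls were false. Changes of rarer IDs and the weight of single libraries in the reported calls are not covered by this.

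Named IDs are the 2 largest passing changes per direction with groups that did not overlap and log2 CPM averaging 1 or more, plus the ID called against SBP2 alone. Libraries, lists and rules were chosen with earlier results of these data known. Lists by symbol and sequences were not used here, since 0 IDs matched.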

Additional observations from a re-analysis of the deposited data

Results flagged for a closer look

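ENSG00000178980 was singled out because its change against control differed between both SBP2 groups by a test of the difference itself. It was log2 1.21 with selenite and 0.03 without, and the difference of 1.18 (SE 0.12, n = 3 and 3) passed edgeR's test at an adjusted p of 0.00216. All 3 selenite inputs were above all 3 SBP2 inputs.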

How the results depend on the processing

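Against control inputs, 51 IDs were higher and 41 lower. With the replicate block over 9 inputs the counts were 375 and 755, with the block over the 6 compared inputs 641 and 1143, and over these 6 without a block 21 and 11. Fitting all 18 libraries gave 144 and 215, DESeq2's own test 94 and 112, and testing every counted ID 162 and 167. Library size alone gave 27 lower. Leaving out 1 input gave 21 to 59 higher and 1 to 86 lower. In the block fit it gave 145 to 465 higher and 235 to 953 lower.

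Against SBP2 inputs, 1 ID was higher and 0 lower by edgeR. An unadjusted edgeR p was under 0.05 for 251 IDs, and for 1679 with the replicate block. With the replicate block the counts were 5 and 32, with the block over the 6 compared inputs 8 and 167, and without a low-count filter 5 and 22. The count higher was 2 over the 6 compared inputs and 3 with all 18 libraries or with the DESeq2 test. Leaving out 1 input gave 1 to 2 higher and 0 lower, and in the block fit 2 to 19 higher and 0 to 431 lower.

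The other counts, with upper-quartile or DESeq2 size factors, limma voom or a minimum of 1 CPM in 3 inputs, were within 1.5 times. ENSG00000187742, ENSG00000130513 and ENSG00000178980 passed against control in all 20 alternatives. ENSG00000167700 was lost in 2 and ENSG00000100889 in 7 of them, all named with their values above. The cause of these shifts was not tested. Where a fit left 2 libraries in a group, it shared the spread of the other groups. With 3 libraries a group, small changes of rare IDs could not be detected, as their SE of 0.37 shows.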

Other observations

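At the low end, outside the tested IDs, 156 IDs had 0 counts in all 3 control inputs and at least 1 count in every selenite input, with a highest single count of 11. The opposite pattern was seen for 45 IDs, with a highest count of 9. Both are small parts of the 35033 IDs with a count. Selenite inputs detected 24016 to 24326 IDs and controls 22712 to 23964. Control 1 had the fewest counts of the 6 libraries (15.2 M), but control 3 had the most (20.7 M) and detected 23964 IDs. Selenite input 2 detected 24326 IDs from 16.6 M counts. The cause of this difference was not tested. With counts this low, the 2 numbers do not show that IDs were switched on. None of either kind passed the low-count filter (0 and 0 tested), so no fold or test is given.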
